A study of Macaca mulatta with 8 samples.

Results

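The aminoacyl-tRNA synthetase genes were followed in uLPS-exposed rhesus macaque microglia with and without the P2RY6 antagonist MRS2578. Members were taken by symbol: a letter followed by ARS1 or ARS2, together with FARSA, FARSB, EPRS1, AIMP1, AIMP2 and EEF1E1. Of the 35432 genes in the files, 38 were members, namely 20 cytosolic synthetases, 16 mitochondrial synthetases and the scaffold proteins AIMP1 and AIMP2. SARS2 and EEF1E1 have no row under their symbol. All 38 members passed the filter on low counts, which kept 12131 genes for testing.

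Primary microglia of the subcortical white matter, the macrophages that live in brain tissue, came from 4 adult, outbred rhesus macaques, the males R07110 (13 years) and R12016 (9 years) and the females R02046 (19 years) and R14143 (6 years). The cells were kept for 8 days in medium with the growth factor M-CSF and on day 7 received uLPS, an ultrapure lipopolysaccharide that engages TLR4, at 10 µg/mL over 16 h. A second culture of each animal was first incubated for 1 h with 5 µM MRS2578, which blocks the UDP receptor P2RY6 selectively. The study describes MRS2578 as not fully specific and states that off-target effects on microglia should be tested. MRS2578 was dissolved in DMSO, and the study's methods state that DMSO controls accompanied assays with MRS2578, without naming the RNA libraries. This gave 8 RNA libraries, 1 per animal and condition, and none without uLPS was analysed here. The question is whether MRS2578 moved the synthetase genes in uLPS-exposed microglia, and whether it did so alike for the cytosolic and the mitochondrial enzymes.

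Aminoacyl-tRNA synthetases join each amino acid to its transfer RNA and so supply the ribosome. Nuclear genes encode separate sets for the cytosol and for the mitochondrion, where they serve the ribosomes that make respiratory chain subunits. KARS1 and GARS1 serve both compartments, EPRS1 charges glutamate and proline, FARSA and FARSB are the subunits of the cytosolic phenylalanine enzyme, and AIMP1, AIMP2 and EEF1E1 hold the cytosolic multisynthetase complex together. Many cytosolic synthetase genes are known targets of ATF4, the transcription factor that the eIF2 kinases induce when amino acids run short or the endoplasmic reticulum is stressed. WARS1, the tryptophan enzyme, is also a classic interferon-γ-induced gene, together with IDO1, which breaks tryptophan down.

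Total counts ran from 9231109 to 32790348 per library. The sample labels and the expression table published with the study give the libraries of R02046 opposite conditions, while the other 6 libraries match. The labels were kept, and the fitted results are also given with the 2 libraries of R02046 exchanged and without R02046, while values in single libraries follow the labels. Over the 12131 genes tested, the log2 differences between a donor's libraries as labelled correlated at 0.64 between R07110 and R12016. For R02046 the correlation was -0.30 with R07110, -0.25 with R12016 and -0.02 with R14143. R14143 correlated at 0.04 with R07110 and at -0.01 with R12016. Which assignment is right was not tested. Of the 14 microglia markers examined, 13 are in the files and 11 reached a mean of 1 CPM (reads of a gene relative to the TMM-scaled library total), with CSF1R at 1247 CPM. The summed microglia markers differed between a donor's libraries by -0.18, -0.28, 0.16 and -0.16 (log2) in R07110, R12016, R02046 and R14143. The part of this in the differences of other genes was not tested. TMEM119 and CX3CR1, which define microglia in the brain, were near 0, with means of 0.0904 and 0.392 CPM. The 4 fibroblast markers summed to 80.6 to 982 CPM with uLPS and to 186 to 398 CPM with MRS2578, and their log2 difference between a donor's libraries in the order R07110, R12016, R02046 and R14143 was 0.64, 1.2, 0.31 and -1.44. The 5 astrocyte markers summed to 45.9 to 151 CPM with uLPS and to 57.6 to 128 CPM with MRS2578, with log2 differences of 0.04, 0.09, 0.33 and -1.15 in the same order of donors. The 5 endothelial and mural markers summed to 157 to 295 CPM over all libraries and the 4 measured oligodendrocyte markers to 61.3 to 76.1 CPM. None of the 6 lymphocyte and 4 neuron markers reached a mean of 1 CPM. In bulk RNA, fewer cells of a type and less RNA per cell cannot be told apart.

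With uLPS alone, the cytosolic synthetases stood well above the mitochondrial ones. Levels of different genes are compared here as CPM per kb of exon, with exon lengths from the NCBI annotation of Mmul_10. Reads were counted per Ensembl gene, so a level per kb is uncertain where the Ensembl and NCBI exons of a gene differ. The median cytosolic enzyme was at 55.5 ± 2.58 CPM per kb (mean and SD over 4 donors) and the median mitochondrial enzyme at 10.3 ± 1.18. The ratio of these medians was 5.42 ± 0.58 with uLPS, between 4.57 and 5.86 in single donors, and 5.66 ± 0.50 with MRS2578. Both sets of enzymes exist for 16 amino acids among the members, which gave 17 pairs of genes. In all 17 pairs the cytosolic gene was higher per kb in each of the 4 donors, by a mean of 1.86-fold for FARSB over FARS2 up to 55.8-fold for WARS1 over WARS2.

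The order of the levels was led by SARS1, the serine enzyme, at 155 ± 15.2 CPM per kb, and by AARS1, the alanine enzyme, at 129 ± 17.5. AARS1 also had the most reads of all members, with a mean of 481 ± 65.2 CPM. WARS1 followed at 95.3 ± 35.6, with the widest SD of all members. GARS1 (92.2 ± 19.8), KARS1 (85.8 ± 15.1) and NARS1 (83.5 ± 13.4), for glycine, lysine and asparagine, came next. Cytosolic enzymes held 19 of the 20 highest places, and AIMP2 held the other at 24.98 ± 4.97. FARSB was the lowest cytosolic gene at 8.09 ± 1.80, although its partner subunit FARSA was at 30.9 ± 5.76. The 2 genes had the same mean of 56.3 CPM before division by length, and FARSB carries 6953 annotated exon bases against 1822 for FARSA. The place of FARSB thus rests on this NCBI length, which was not compared with the Ensembl gene. Among the mitochondrial enzymes IARS2, for isoleucine, was highest at 21.4 ± 1.85 and WARS2 lowest at 1.89 ± 0.39. AIMP1 was at 16.0 ± 2.08. Of the 37 steps between neighbours in this order, 28 were smaller than the larger SD of the pair, so most neighbours did not differ beyond the spread between donors.

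**Figure D1:**
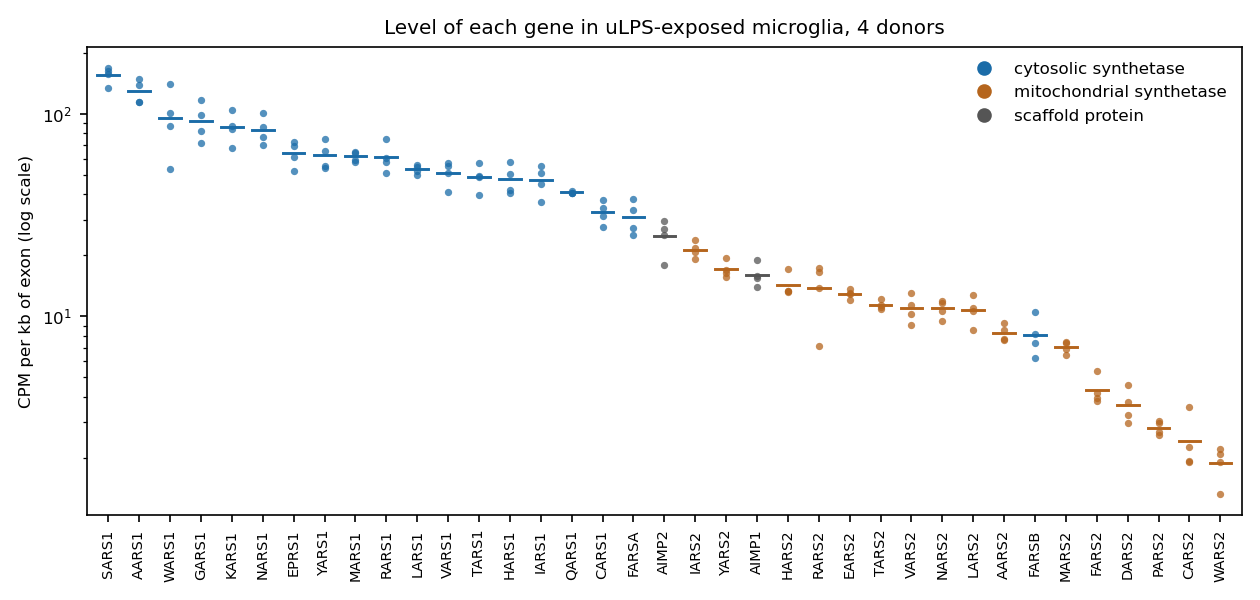
Level of 37 of the genes with uLPS alone, in CPM per kb of exon on a log axis. Points are the 4 donors and bars their means, from SARS1 at 155 down to WARS2 at 1.89, and FARSB is the only cytosolic enzyme among the mitochondrial ones.

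Promoters were searched because ATF4 acts through a known DNA motif. The window ran from 250 bases before to 50 bases after the annotated start of each gene in Mmul_10, on both strands. The core of the element bound by ATF4 with C/EBP proteins, TGATGNAA, was in 609 of 20782 protein-coding promoters (2.93%). It was in 3 of the 20 cytosolic genes, in 0 of the 16 mitochondrial genes and in neither scaffold gene. For comparison, 4 of 23 amino acid response genes held it, and ASNS, TRIB3 and CHAC1 of that list did not. Only the outermost annotated start of each gene was searched, so a gene without a match may hold the element elsewhere. The windows of the 3 synthetase genes are shown with that of DDIT3, an ATF4 target, with the element in capitals on the gene's own strand, where it reads as the reverse complement of the core.
AARS1: ttttctcgcagTTGCATCAgccaatttaga
CARS1: cggggcggtgaTTGCATCAgattctgggaa
IARS1: ttttcagcgcgTTGCATCAcctccacgcgc
DDIT3: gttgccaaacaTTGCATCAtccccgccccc
The AARS1 window is chr20:61230520-61230549 on the plus strand, and the element begins 120 bases before the start. The CARS1 window is chr14:3120246-3120275 and the IARS1 window chr15:107388041-107388070, both on the minus strand, where the elements begin at bases 31 and 42 after the start, inside the transcribed region. The DDIT3 window is chr11:57095911-57095940 on the minus strand, with the element 111 bases before the start. All 4 windows hold the same 8 letters, while the bases around them differ. A match is a description of letters and not evidence of binding.

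No gene of any kind, synthetases included, passed the test for MRS2578 under the sample labels, so this fit does not show that the synthetase genes stayed the same. The main test was edgeR's quasi-likelihood test, blocked by donor, and a gene was called at an adjusted p under 0.05. It called 0 of 12131 genes (0%), while 624 genes (5.14%) reached 0.05 without adjustment, of which 0 were members. The likelihood ratio test of edgeR called 5 genes (0.0412%) and DESeq2 1 gene (0.00824%), again with 0 members. With R02046 exchanged, 75 genes (0.618%) were called, of which 0 were members, and 1995 genes (16.4%) reached 0.05 without adjustment, of which 4 were members. WARS1, NARS1 and FARSA were among them. Without R02046, 0 of 12295 genes (0%) were called, and 1670 (13.6%) reached 0.05 without adjustment, of which 1, WARS1, was a member. The share of members was thus not above that of all genes in any of these counts. The precision of the labelled fit was an SE of 0.09 to 0.15 for the cytosolic and 0.09 to 0.19 for the mitochondrial genes on the log2 scale. Across the 38 members the 95% intervals of the log2 fold change ran from -0.67 at the lowest to 0.49 at the highest, and all 38 held 0.

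The medians of the fitted log2 fold changes were close to 0 in both classes. The cytosolic median was -0.08 under the labels, -0.09 with R02046 exchanged and -0.09 without R02046. The mitochondrial median was -0.03, 0.02 and -0.02 in the same order. The medians over all genes tested were -0.01, 0.00 and 0.00. Of the 20 cytosolic genes, 16 had a fold change below 0 under the labels, 15 with R02046 exchanged and 15 without R02046, against 52.1%, 49.8% and 50.5% of all genes. Of the 16 mitochondrial genes, these numbers were 10, 7 and 8. Genes of a class share libraries and are not replicates, so no test was made of these counts.

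The within-animal differences (log2 CPM with uLPS and MRS2578 minus log2 CPM with uLPS) showed that the classes did not part the same way in each animal. In R07110 the cytosolic median was -0.18 and the mitochondrial median -0.05, and 17 of 20 and 10 of 16 genes were lower, beside 49.7% of all genes. In R12016 the order was the opposite, with a cytosolic median of 0.01 and a mitochondrial median of -0.18, and 10 of 20 and 13 of 16 genes were lower, beside 50.2%. In R02046, as labelled, the medians were 0.00 and -0.07, with 10 of 20 and 11 of 16 genes lower, beside 50%. In R14143 they were -0.02 and 0.12, with 11 of 20 and 5 of 16 genes lower, beside 53.2%. The cytosolic minus the mitochondrial median was therefore -0.13, 0.19, 0.07 and -0.14, in the same order of donors. Its mean was 0.00 ± 0.16 (SD, n = 4) under the labels, -0.04 ± 0.15 with R02046 exchanged and -0.03 ± 0.19 without R02046. This gap was smaller than the spread between animals under each assignment. Without TMM scaling, the median of all genes moved by up to 0.14 (in R12016). It was then 0.06, 0.14, -0.05 and 0.04 in R07110, R12016, R02046 and R14143. The mean of the donors' medians turned from -0.05 to 0.006 for the cytosolic and from -0.04 to 0.01 for the mitochondrial genes. These class medians moved along with the median of all genes, so this change of sign is not particular to the synthetases. Between partners for the same amino acid, 0 of the 17 pairs kept one sign of the gap in all 4 donors, and 4 pairs in which the cytosolic gene was the lower one and 1 in which it was the higher one kept it in the 3 donors other than R02046.

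**Figure D2:**
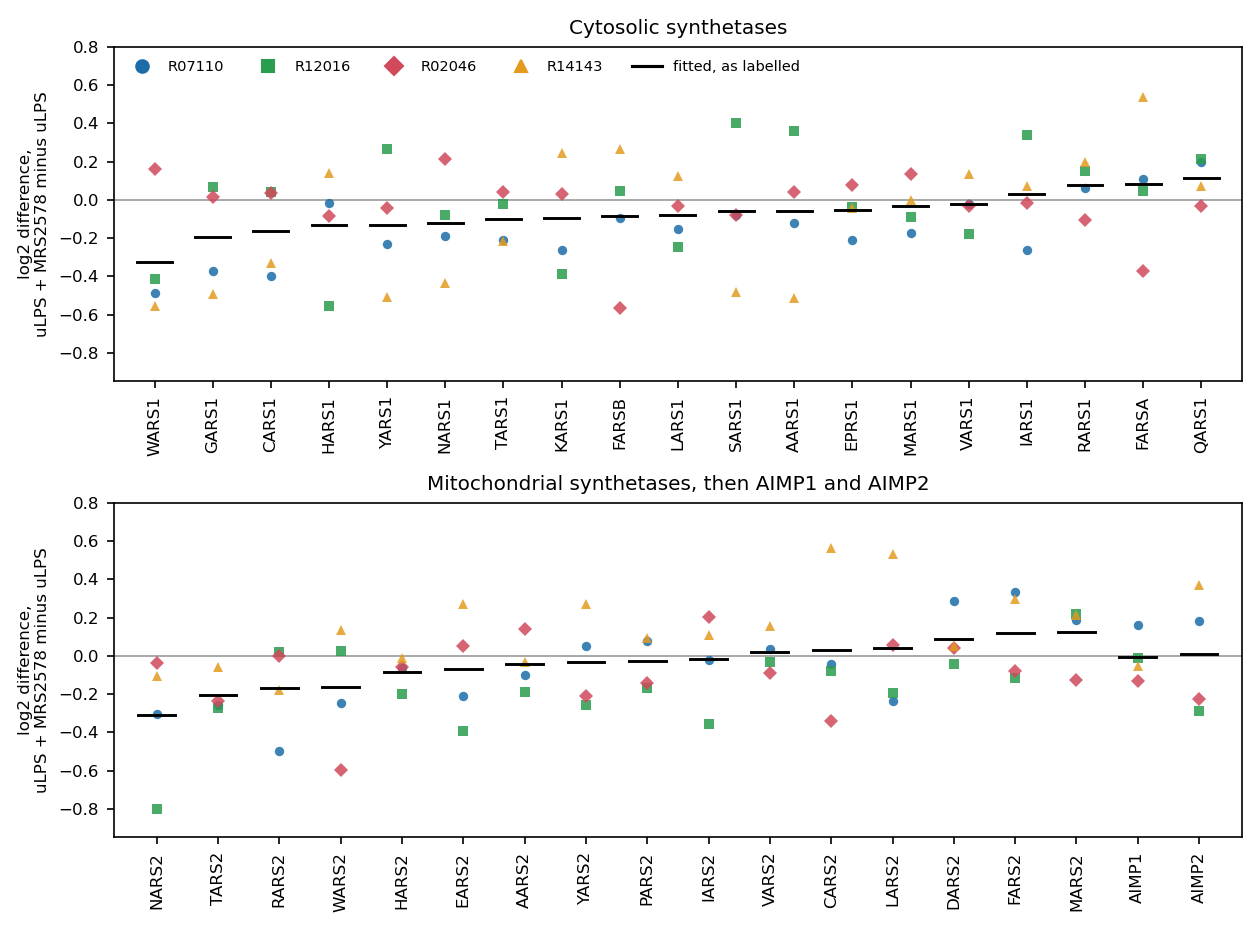
Within-animal log2 difference (uLPS and MRS2578 minus uLPS) of 37 of the genes, with a symbol for each donor and a bar for the fitted value under the labels. As labelled, WARS1 is at or below -0.41 in every donor but R02046, and TARS2, NARS2 and HARS2 are below 0 in all 4 donors. Most other genes lie on both sides of 0.

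WARS1 had the largest cytosolic difference. Its level with uLPS was 349.8, 484, 186 and 303 CPM in R07110, R12016, R02046 and R14143. With MRS2578 it was 249.8, 363, 208 and 206 CPM. Every donor but R02046 was lower with MRS2578, and the levels of the conditions overlapped, since R12016 stayed above the uLPS level of the other donors. The within-animal differences were -0.49, -0.41, 0.16 and -0.55. The fitted log2 fold change was -0.32 (SE 0.14, 95% interval -0.65 to 0.005), with an adjusted p of 0.878 in edgeR's quasi-likelihood test. With R02046 exchanged it was -0.41 (SE 0.09) with an adjusted p of 0.101, and without R02046 it was -0.49 (SE 0.10) with an adjusted p of 0.160. With R02046 exchanged, WARS1 passed the threshold in edgeR's likelihood ratio test, with an adjusted p of 0.0273, beside 5.08% of all genes. It also passed in DESeq2, with an adjusted p of 0.00621, beside 4.81% of all genes. It was the only member with more than 0.25 in one direction in all 3 donors other than R02046, beside 8.42% of all genes. WARS1 lies at chr7:162551773-162596392 in Mmul_10, and 395 of its exon bases overlap WDR25 on the other strand, so its counts are not certain where the strand setting of the counting is not given.

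The 9 measured interferon-γ-induced genes were, like WARS1, lower with MRS2578 in every donor other than R02046, and divided in R02046. All 9 were below 0 in R07110, R12016 and R14143, beside 19.8% of all genes, with medians of -0.57, -0.85 and -0.69. In R02046, 4 of 9 were lower, beside 50% of all genes, with a median of 0.07. Thus 4 of the 9 were lower in all 4 donors as labelled, beside 6.49% of all genes. The fitted median was -0.49 under the labels, -0.71 with R02046 exchanged and -0.70 without R02046. IDO1, the tryptophan-degrading enzyme, was the only gene of the list with an adjusted p under 0.05 under any assignment. With R02046 exchanged, it was among the 0.618% of all genes that were called. Its level was 2596, 5600.0, 1313 and 3235 CPM with uLPS and 1316, 1864, 2277 and 1872 CPM with MRS2578, in R07110, R12016, R02046 and R14143. R02046 as labelled was again the only donor with a higher level. The log2 fold change of IDO1 was -0.66 (SE 0.37, adjusted p = 0.878) under the labels, -1.04 (SE 0.16, adjusted p = 0.0427) with R02046 exchanged and -1.12 (SE 0.20, adjusted p = 0.155) without R02046. CXCL9, a T cell-attracting chemokine, had the largest difference of the list under the labels, -1.21 (SE 0.48), with 35.6 CPM in R12016 and 2.92 to 3.76 CPM in the other donors with uLPS, against 1.90 to 4.68 CPM with MRS2578. Its fitted value was -1.15 with R02046 exchanged and -1.47 without R02046. These lists were written with earlier results of these libraries known, so their directions are not independent evidence.

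GARS1, CARS1 and HARS1 had the next largest cytosolic differences. GARS1 was at 321, 234, 267 and 381 CPM with uLPS and at 248, 245, 269.6 and 271 CPM with MRS2578, in R07110, R12016, R02046 and R14143. Only R07110 and R14143 were lower, by -0.37 and -0.49, and the levels with MRS2578 lay within a narrow band of 245 to 271 CPM. The fitted value of GARS1 was -0.19 (SE 0.13, adjusted p = 0.881), and it was -0.20 with R02046 exchanged and -0.27 without R02046. CARS1, for cysteine, was at 101, 81.6, 92.5 and 112 CPM with uLPS and at 76.9, 83.9, 94.7 and 88.7 CPM with MRS2578. It showed the same split, with differences of -0.40, 0.04, 0.03 and -0.33 and a fitted value of -0.16 (SE 0.11, adjusted p = 0.884), which was -0.18 with R02046 exchanged and -0.23 without R02046. HARS1, for histidine, was at 86.7, 123, 108 and 89.5 CPM with uLPS and at 85.5, 83.6, 101 and 98.6 CPM with MRS2578. R12016 alone carried its difference of -0.13 (SE 0.13, adjusted p = 0.907), at -0.56 against -0.02, -0.08 and 0.14 in R07110, R02046 and R14143, and the fitted value was -0.09 with R02046 exchanged and -0.14 without R02046.

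The genes with the highest levels differed in opposite directions in different donors. SARS1 was at 328, 268, 315 and 337 CPM with uLPS and at 310.0, 355, 298 and 242 CPM with MRS2578, in the order R07110, R12016, R02046 and R14143. AARS1 was at 517, 426, 425 and 554 CPM with uLPS and at 475, 548, 437 and 388 CPM with MRS2578. In R12016 both were higher with MRS2578, by 0.40 and 0.36, and in R14143 both were lower, by -0.48 and -0.52. Their fitted values were -0.06 for each gene (SE 0.15 for each). For SARS1 these were -0.02 with R02046 exchanged and -0.05 without R02046, and for AARS1 they were -0.08 and -0.09. FARSB was at 57.0, 43.4, 73.1 and 51.5 CPM with uLPS and at 53.4, 44.8, 49.3 and 62.0 CPM with MRS2578. FARSA, named with its partner after its values were seen, had differences of 0.11, 0.04, -0.37 and 0.54, and FARSB of -0.10, 0.05, -0.57 and 0.27. Both subunits were lowest in R02046 as labelled and highest in R14143. The fitted value of FARSB was -0.09 under the labels, but 0.19 with R02046 exchanged and 0.07 without R02046, and that of FARSA was 0.08, 0.26 and 0.23.

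Grouping the cytosolic proteins by the multisynthetase complex, a textbook division made after the values were known, set the donors further apart. In the files, 10 enzymes and scaffold proteins belong to the complex, and 12 cytosolic enzymes are outside it. In the order R07110, R12016, R02046 and R14143, the median difference of the complex was -0.16, -0.06, -0.02 and 0.07. Outside the complex it was -0.16, 0.04, -0.01 and -0.38. In R14143, 7 of the 12 enzymes outside the complex were below -0.25, beside 26% of all genes, and 0 of the 10 complex members were, while FARSA and FARSB, also outside it, were above 0.25. The other donors showed little such contrast, with 3 of 12 against 2 of 10 genes below -0.25 in R07110, 2 of 12 against 2 of 10 in R12016 and 2 of 12 against 0 of 10 in R02046. The 7 were WARS1, AARS1, YARS1, GARS1, SARS1, NARS1 and CARS1, between -0.55 and -0.33. AARS1, CARS1 and IARS1 are the 3 enzymes with a match to the core TGATGNAA in the window searched. They were all lower in R07110, at -0.12, -0.40 and -0.26, and all higher in R12016, at 0.36, 0.04 and 0.34. They were divided in R02046, at 0.04, 0.03 and -0.02, and in R14143, at -0.52, -0.33 and 0.07.

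The amino acid response genes, which ATF4 drives together with many synthetase genes, also differed between donors. The 23 measured genes had median differences of -0.31, 0.31, -0.14 and -0.93 in R07110, R12016, R02046 and R14143, with 17, 8, 15 and 22 genes lower. The medians of the 20 cytosolic synthetases were -0.18, 0.01, 0.00 and -0.02 in the same order of donors. The fitted median of the amino acid response genes was -0.32 under the labels, -0.24 with R02046 exchanged and -0.33 without R02046. Under these 3 assignments, 0 of these genes were called. ATF4 was at 427, 448, 229 and 590.1 CPM with uLPS and at 291, 299, 198 and 247 CPM with MRS2578. It was lower in all 4 donors as labelled, by 0.55, 0.58, 0.21 and 1.26 on the log2 scale in R07110, R12016, R02046 and R14143, as were 6.49% of all genes. Its fitted value was -0.65 (SE 0.17, adjusted p = 0.878), -0.55 (SE 0.20, adjusted p = 0.234) with R02046 exchanged and -0.80 (SE 0.16, adjusted p = 0.166) without R02046. The RNA of ATF4 and most of the list thus went apart in R12016, where ATF4 was lower and 15 of the 23 genes were higher. ATF4 is itself one of the 23 genes, and its protein was not measured.

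Single genes of this list showed how wide the donors spread. DDIT3, which promotes cell death under stress, had differences of 0.04, 0.89, -0.46 and -2.61 in R07110, R12016, R02046 and R14143. Its exons overlap those of the synthetase gene MARS1 by 149 bases on the other strand. ASNS, the asparagine synthetase, had -0.39, 0.89, -0.35 and -0.87, and the pseudokinase TRIB3 had -0.26, 0.32, -0.13 and -1.70. CHAC1, which degrades glutathione, had the largest negative fitted value of the list at -1.55 (SE 0.52, adjusted p = 0.878), with differences of -1.24, -1.001, -0.14 and -3.65, and it was at -1.58 with R02046 exchanged and -1.89 without R02046. PPP1R15A, which reverses eIF2 phosphorylation, had the largest positive one at 0.28 (SE 0.45, adjusted p = 0.942), with 1.13 and 1.55 in R07110 and R12016 and -0.60 and -0.98 in R02046 and R14143. Its fitted value was 0.60 both with R02046 exchanged and without R02046. The fitted values of DDIT3, ASNS and TRIB3 were -0.47, -0.19 and -0.44 under the labels, -0.24, -0.03 and -0.39 with R02046 exchanged, and -0.47, -0.14 and -0.54 without R02046. R14143 was the lowest donor for all 5 genes. In R14143 the fibroblast and astrocyte markers were also lower, at -1.44 and -1.15, and in R12016 the fibroblast markers were higher, at 1.2, and their part in these differences was not tested.

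**Figure D3:**
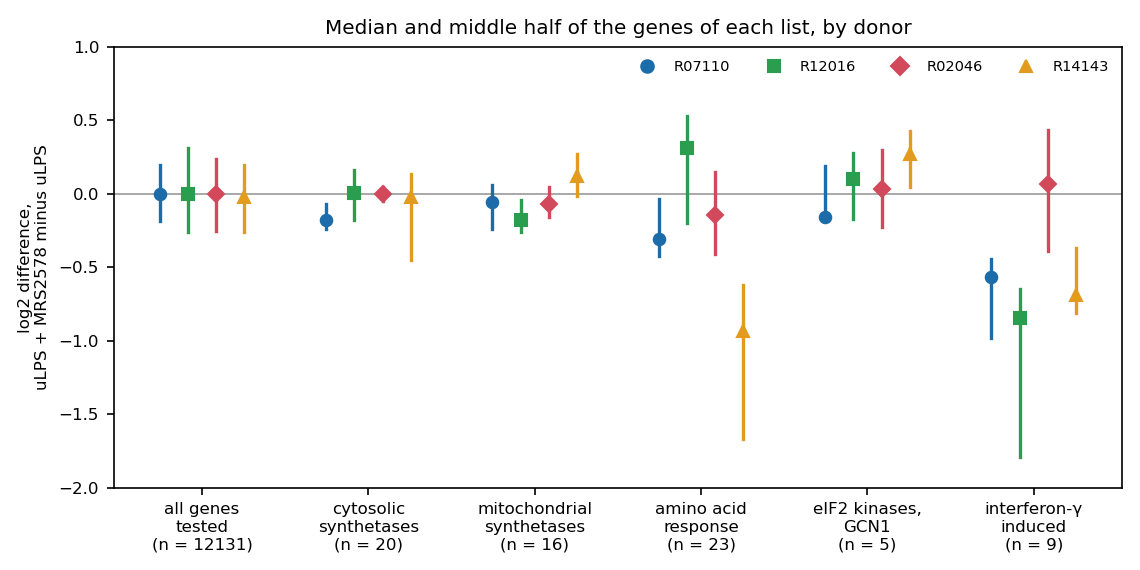
Median log2 difference (uLPS and MRS2578 minus uLPS) of each gene list by donor, with lines from the lower to the upper quartile of its genes and the number of genes under each name. All genes lie at 0, the synthetase medians lie between -0.18 and 0.12, the amino acid response genes range from 0.31 in R12016 to -0.93 in R14143, and the interferon-γ-induced genes are below 0 in every donor but R02046.

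Among the mitochondrial enzymes, NARS2, TARS2 and HARS2 were lower with MRS2578 in all 4 donors as labelled. These 3 of 38 members stand beside 6.49% of all genes, and 0 of 38 members were higher in all 4 donors, beside 6.43%. With R02046 exchanged, 7 members were lower in all 4 donors, beside 13.2% of all genes, and 4 were higher, beside 10.6%. The exchange reverses the sign of the difference in R02046, so NARS2, TARS2 and HARS2 could not be among the 7. In the 3 donors other than R02046, 10 of 38 members were lower in each, beside 19.8% of all genes, and 4 were higher in each, beside 17%. NARS2, for asparagine, was at 26.6, 24.0, 29.5 and 30.03 CPM with uLPS and at 21.6, 13.7, 28.7 and 27.9 CPM with MRS2578, in R07110, R12016, R02046 and R14143. R12016 had most of the difference, at -0.80, against -0.30, -0.04 and -0.11 in the other donors. The fitted value was -0.31 (SE 0.15, adjusted p = 0.878), and it was -0.29 with R02046 exchanged and -0.39 without R02046.

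TARS2, for threonine, was at 31.2, 29.9, 33.4 and 30.5 CPM with uLPS and at 26.1, 24.7, 28.3 and 29.3 CPM with MRS2578. It was the only member whose conditions did not overlap, beside 1.08% of all genes. The within-animal differences were -0.26, -0.28, -0.24 and -0.06, and the fitted value was -0.21 (SE 0.10, adjusted p = 0.878). With R02046 exchanged, the fitted value was -0.09 (SE 0.12) and the conditions overlapped, and without R02046 it was -0.20 (SE 0.12). HARS2 was at 40.2, 52.1, 39.8 and 40.5 CPM with uLPS and at 38.4, 45.5, 38.3 and 40.2 CPM with MRS2578, a difference of -0.07, -0.20, -0.06 and -0.01, with fitted values of -0.08 under the labels, -0.06 with R02046 exchanged and -0.09 without R02046. HARS1 and HARS2 lie head to head on opposite strands of chromosome 6 and share 111 exon bases, so reads there could be counted for either gene.

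RARS2, for arginine, differed by -0.50 in R07110 and by 0.02, 0.00 and -0.18 in R12016, R02046 and R14143, from 32.3, 16.7, 38.7 and 40.6 CPM with uLPS to 22.8, 16.95, 38.7 and 35.8 CPM with MRS2578. The fitted value of RARS2 was -0.17 under the labels, -0.17 with R02046 exchanged and -0.23 without R02046. Its level in R12016 was the lowest in both conditions, a difference between animals that was larger than any within an animal. WARS2, the mitochondrial partner of WARS1, was at 7.31, 4.66, 7.79 and 6.66 CPM with uLPS and at 6.15, 4.74, 5.12 and 7.33 CPM with MRS2578. Its differences of -0.25, 0.03, -0.60 and 0.14 did not follow those of WARS1, and its fitted value was -0.17 (SE 0.19, adjusted p = 0.924), but 0.09 with R02046 exchanged and -0.04 without R02046. IARS2, the highest of the class, was at 94.8, 108, 87.8 and 99.1 CPM with uLPS and at 93.5, 84.3, 101 and 107 CPM with MRS2578, a fitted value of -0.02 (SE 0.12), which was -0.12 with R02046 exchanged and -0.09 without R02046. Its exons share 787 bases with RAB3GAP2 on the other strand. The mitochondrial gene with the largest positive fitted value was MARS2, for methionine, at 0.13 (SE 0.11), which was 0.19 with R02046 exchanged and 0.21 without R02046.

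The scaffold genes had fitted values near 0. AIMP1 was at 37.1, 41.7, 50.1 and 40.7 CPM with uLPS and at 41.5, 41.4, 45.6 and 39.2 CPM with MRS2578, with a fitted value of -0.01 (SE 0.10, 95% interval -0.25 to 0.23), which was 0.06 with R02046 exchanged and 0.03 without R02046. AIMP2 was at 32.5, 34.7, 37.9 and 23.1 CPM with uLPS and at 36.8, 28.4, 32.3 and 29.9 CPM with MRS2578, with a fitted value of 0.01 (SE 0.14, 95% interval -0.33 to 0.35), which was 0.12 with R02046 exchanged and 0.09 without R02046. AIMP2 differed by 0.18 and 0.37 in R07110 and R14143 and by -0.29 and -0.23 in R12016 and R02046, so donors on both sides of 0 gave this value.

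**Figure D4:**
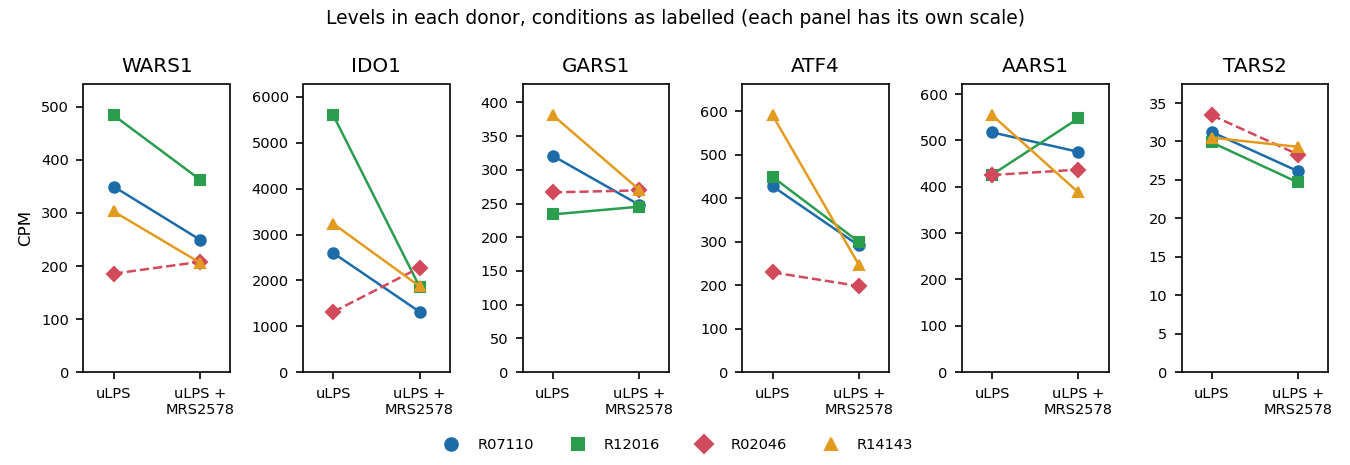
CPM of 6 genes in each donor with uLPS and with uLPS and MRS2578, on linear axes from 0 with a scale for each gene; lines join the libraries of a donor and R02046 is dashed. As labelled, WARS1 and IDO1 are lower with MRS2578 in all donors but R02046, and ATF4 and TARS2 are lower in all 4. AARS1 is at 426 and 548 in R12016 but at 554 and 388 in R14143.

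Genes around the synthetases in translation were examined in the same fits, and 0 were called under the labels, with R02046 exchanged or without R02046. The eIF2 kinases and GCN1 made a list of 5 genes. Of these, EIF2AK3, the kinase of endoplasmic reticulum stress, was higher in all 4 donors as labelled, beside 6.43% of all genes. Its differences were 0.25, 0.56, 0.33 and 0.43, with a fitted value of 0.40 (SE 0.10, adjusted p = 0.878). With R02046 exchanged it was 0.24 (SE 0.15, adjusted p = 0.481), and without R02046 0.41 (SE 0.12, adjusted p = 0.244). EIF2AK2, the kinase that senses double-stranded RNA, had the largest negative value at -0.08 (SE 0.16), which was -0.23 with R02046 exchanged and -0.21 without R02046. The median of the 5 genes was 0.05 under all 3 assignments. EIF2AK4, which senses uncharged transfer RNA and was named after its values were seen, differed by -0.16, -0.17, 0.04 and 0.50.

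The 9 measured genes of aminoacylation outside the rule, among them the mitochondrial glutamine amidotransferase and the selenocysteine pathway, had a fitted median of -0.12 under the labels, 0.05 with R02046 exchanged and -0.07 without R02046. Under the labels they ranged from -0.20 for MTFMT, which formylates the mitochondrial initiator, to 0.30 for TARS3, a threonine enzyme at 1.15 to 3.20 CPM. MTFMT was at 0.05 and -0.09, and TARS3 at 0.37 and 0.45, with R02046 exchanged and without it. The 4 measured cytosolic elongation factors had fitted values from 0.01 for EEF1A1 to 0.14 for EEF1G under the labels, with a median of 0.09. That median was 0.22 with R02046 exchanged and 0.21 without R02046, and EEF1G was at 0.37 and 0.34 (adjusted p = 0.180 and 0.386). The 9 mitochondrial translation factors had a median of -0.11 under the labels, -0.05 with R02046 exchanged and -0.10 without R02046. As labelled they ran from -0.23 for TSFM, the exchange factor of the mitochondrial elongation factor Tu, to 0.56 for GFM2, a ribosome recycling factor. GFM2 was at 14.4, 12.4, 15.4 and 15.8 CPM with uLPS and at 23.5, 31.7, 16.9 and 16.0 CPM with MRS2578, with differences of 0.70 and 1.348 in R07110 and R12016 and of 0.14 and 0.02 in R02046 and R14143. The fitted values of GFM2 and TSFM were 0.50 and -0.18 with R02046 exchanged, and 0.69 and -0.27 without R02046.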

How the data were processed

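Directional RNA libraries were sequenced. The deposited values are whole-number counts of reads per Ensembl gene, without normalization, and 11503 of the 35432 genes have no symbol. The study's methods give fastp (0.20), STAR (2.5.4), SAMtools (1.10) and HTSeq (0.11.0) on Mmul_10, counting unique reads within exons, while the submitters' processing notes list Trimmomatic (0.30), TopHat2 (2.0.14), SAMtools (1.3) and HTSeq (0.6.1p1). The strand setting and annotation release are not given in the sources used here, so genes that overlap on opposite strands have uncertain counts.

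Counts were analysed with R (4.3.3), edgeR (4.0.16) and DESeq2 (1.42.0). Genes were kept by filterByExpr (minimum count 10), scaled by TMM, and tested in edgeR by quasi-likelihood, blocked by donor, with Benjamini-Hochberg adjustment over all genes at 0.05. SE is that implied by the test statistic. Log2 CPM has a prior count of 2. A count of 0 allows up to 3 reads, which is 0.0914 to 0.320 CPM across the libraries, for counting error only. The libraries of a donor come from 1 animal, and their deviations from the condition means correlated over genes at 0.46 to 0.60. No pair of libraries of a donor was a duplicate, with a chi-square per degree of freedom of at least 19.7. The scripts were tested on simulated data.

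Positions, exon lengths and promoters come from NCBI's Mmul_10 annotation, read with pysam (0.24.0), with older symbols matched by gene ID. The 38 members all matched.

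The members and gene lists were chosen with earlier results of these data known. Values in every library are given for the 4 enzymes of each class with the largest fitted fold change, members of one sign in all 4 donors, members over 0.25 in one direction in the 3 donors other than R02046, the highest and lowest of each class, WARS1 and the scaffold genes. From the other lists, genes with an adjusted p under 0.05, or otherwise the largest positive and negative value, and ATF4, DDIT3, ASNS and TRIB3 are named. Single values of 1 member are not reported here, although it stays in all counts and medians. The authors' differential expression results were not used.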

Additional observations from a re-analysis of the deposited data

Results flagged for a closer look

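The 37 members reported here gave 111 sets of 4 donor values (levels in each condition and within-animal differences), and in 3 of them 1 donor stood apart from the other 3 beyond Dixon's 95% limit for the gap to the nearest value over the whole range. Chance gives about 1 in 20 such sets. The within-animal log2 difference of MARS2 was -0.13 in R02046 as labelled against 0.19 to 0.22 in the other donors. That of TARS2 was -0.057 in R14143 against -0.28 to -0.24. The level of HARS2 with uLPS was 52.1 CPM in R12016 against 39.8 to 40.5 CPM.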

How the results depend on the processing

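The number of genes called was 0 under the labels and stayed 0 with DESeq2's size factors, no count filter, at least 10 counts in every library, edgeR's earlier quasi-likelihood estimation and each donor left out in turn (0 to 0); it was 1 with DESeq2's Wald test and 5 with the likelihood ratio test. With R02046 exchanged it was 75, or 616 with the likelihood ratio test, 583 with DESeq2 and 39 with the earlier estimation, and leaving out 1 more donor gave 0 (R07110), 5 (R12016) and 918 (R14143); the cause was not tested. Members called went from 0 to 1, WARS1, with R02046 exchanged under the likelihood ratio test and under DESeq2, and stayed at 0 elsewhere. The cytosolic median log2 fold change stayed between -0.10 and -0.06 in every fit, and the mitochondrial median ran from -0.12 without R14143 to 0.09 with R02046 exchanged and R12016 left out. Without the replicate block (the pairing by donor), 0 genes were called, and the medians were -0.08 and -0.02; with R02046 exchanged, dropping the block brought the calls from 75 to 0. Without TMM scaling the mean of the donors' cytosolic medians was 0.01 and of the mitochondrial medians 0.01, against -0.05 and -0.04 with it. The median of all genes moved along, to 0.06, 0.14, -0.05 and 0.04 in R07110, R12016, R02046 and R14143. Single members changed sign in up to 9 of 38 cases when a donor was left out under the labels, and in 5 of 38 with R02046 exchanged. The ratio of class levels was 5.27 to 5.70 with a donor left out. R02046's library with uLPS was the shallowest, at 9231109 counts. The exchanged leave-one-out fits, the earlier estimation and the lengths by longest transcript (ratio 5.56) were added after seeing the data.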

Other observations

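A gene with no symbol in the files is named SARS2, the mitochondrial serine enzyme, by the gene name table, and was not counted as a member. It was at 32.9, 26.4, 20.7 and 26.4 CPM with uLPS and at 26.9, 27.1, 20.04 and 27.8 CPM with MRS2578 in R07110, R12016, R02046 and R14143. Its within-animal differences were -0.29, 0.03, -0.05 and 0.08, and the edgeR quasi-likelihood fit gave a log2 fold change of -0.06 with an SE of 0.11 and an adjusted p of 0.954. At 12.5 CPM per kb with uLPS it lay within the range of the mitochondrial members, and 339 of its exon bases overlap MRPS12 on the other strand.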
